A study of Mus musculus with 12 samples.

Results

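The genes described here encode zinc finger proteins that carry the mouse name Zfp and a number and that were expressed in bone marrow-derived macrophages. Members were the protein-coding Zfp genes, other than Zfp36, whose mean in untreated cells was at least 2 FPKM (fragments scaled for gene length and for the reads counted in the library). The rule kept 122 of 353 protein-coding Zfp genes, in a table of 32246 genes. The members were thus selected on their untreated FPKM, so their untreated levels and every comparison with untreated cells are given below as descriptions. The fold changes of PLG+EACA+RNase over PLG+EACA used no value that chose them. Their p-values did in part, since the untreated libraries shared in the estimate of the spread. A fit without the untreated libraries is therefore given as well.

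The macrophages had been differentiated from mouse bone marrow in 50 ng/mL GM-CSF over 7 days. Of 12 libraries of total RNA, 4 came from cells that received PLG exposed to both EACA and RNases (PLG+EACA+RNase), 4 from cells that received PLG exposed to EACA alone (PLG+EACA), and 4 from untreated cells. Treatment lasted 24 h. The labels do not spell out PLG, do not give strain, sex or age, and name no cells that received EACA or RNase without PLG. Nothing in them tells whether replicate libraries stem from different mice or dishes, so p-values measure the spread between these libraries only, which may be technical.

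A C2H2 zinc finger is a short loop held by a zinc ion between a pair of cysteines and a pair of histidines, and tandem fingers read DNA, or in some proteins RNA or another protein. Many mammalian members also carry a KRAB domain, which binds the corepressor Trim28. Trim28 in turn brings the histone methyltransferase Setdb1 and heterochromatin proteins to the bound site, a pathway known above all for silencing retrotransposons and imprinted genes. KRAB zinc finger genes multiplied by tandem duplication and lie in clusters, while zinc finger genes without KRAB are more often scattered single copies with older and more varied roles.

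Counted reads per library, worked out from the spacing of low FPKM values, numbered 12940890 to 22677034. A member had 26 to 6074 reads in a library, with a median of 336, so low members carry appreciable counting error. Replicate 4 stood apart in both treated groups. The chi-square divided by its degrees of freedom was 13.8 to 24.3 against the others of its group with PLG+EACA+RNase and 7.93 to 9.74 between those others, and with PLG+EACA it was 21.3 to 35.0 and 5.89 to 14.8. All 10 macrophage markers averaged at least 1 FPKM in every group, and their sum was 4111 to 4670 FPKM with PLG+EACA+RNase, 4197 to 6129 FPKM with PLG+EACA and 5350 to 5961 FPKM in untreated cells, carried mostly by Lyz2. Single markers went both ways, with 4 called higher and 4 lower with PLG+EACA against untreated cells, and 1 higher and 1 lower with PLG+EACA+RNase against PLG+EACA. The 3 B cell and 3 T cell markers each averaged under 1 FPKM. Of the neutrophil, mast cell and stroma markers, S100a8, S100a9, Camp, Kit, Col1a1 and Pdgfrb averaged over 1 FPKM in every group. Kit was 1.97-fold lower and Pdgfrb 2.40-fold higher with PLG+EACA than in untreated cells. Both were also called against untreated cells with PLG+EACA+RNase, and the others were called in no comparison. The part of such cells in the differences below was not tested. In bulk samples, fewer expressing cells and less RNA per cell cannot be told apart.

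Promoter sequence offers one feature that the rule did not use. Windows from 250 bases before to 50 bases after the gene start were available for 95 members from RefSeq on the build GRCm38.p6, and 13 motifs were searched on both strands. The motif of the zinc finger factor ZNF143, whose letters stand in capitals below, leaves 2 positions free. It lay in 12 of the 95 member windows (12.6%). Of 6686 other protein-coding genes with the same minimum level, 4.80% held it, as did 2.08% of all 27025 windows. Those other genes were not matched to the members in level. The ZNF143 motif was singled out after these shares were seen. The GAS element TTCNNNGAA was in 15.8% of member windows and 7.94% of the other expressed genes. The ETS motif CCGGAAG was in 21.1% and 22.7%, the E-box CACGTG in 7.37% and 12.9%, the AP-1 motif TGANTCA in 5.26% and 6.25%, and the interferon-stimulated response element in 1.05% and 4.02%. The other 7 were the motifs of NF-kB, heat shock factor, NRF1 and YY1, the cAMP response element TGACGTCA, the metal response element TGCNCNC and the antioxidant response element TGANNNNGC. Matches were counted for each motif separately, so a base can belong to more than 1 of them, and a match is a description of letters and not of a bound site.

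Below are 7 of the stretches that hold the ZNF143 letters, printed because the values of these members are described further on. Each is 30 bases, 5′ to 3′ in the direction of the motif, with the motif in capitals.
Zfp444, chr7:6172364-6172393, minus strand: cagctggaaACTACATCTCCCaagaaacat
Zfp358, chr8:3493104-3493133, plus strand: ctcgagcgaACTACAAGTCCCagcagctcc
Zfp219, chr14:52019700-52019729, plus strand: tcacccgagACTACAAATCCCaggatgccc
Zfp692, chr11:58307012-58307041, plus strand: ctaaggctaACTACAATTCCCggcaggctt
Zfp84, chr7:29768520-29768549, minus strand: ttatagtggACTACATTTCCCagaaggcgg
Zfp790, chr7:29815959-29815988, minus strand: cggccttgaACTACATTTCCCagaatacct
Zfp146, chr7:30169851-30169880, plus strand: cgactttggACTACACTTCCCacaaggcac
Where the capitals differ between genes, they do so at the motif's free positions, and those of Zfp84 and Zfp790 are the same. The other genes with the motif were Zfp1, Zfp180, Zfp260, Zfp691 and, with a pair of copies, Zfp317. Of the 12 genes, 4 carried a KRAB pattern. Zfp143, the mouse gene for the factor itself, was a member at a steady level: 4.52, 3.97, 4.12 and 3.79 FPKM with PLG+EACA+RNase, 4.49, 3.72, 3.95 and 4.06 FPKM with PLG+EACA, and 4.20, 4.10, 3.94 and 3.86 FPKM in untreated cells. Its 3 groups overlapped.

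Most members were expressed at low levels. Their untreated means ran from 2.07 to 54.8 FPKM with a median of 4.10 FPKM, against a median of 8.86 FPKM over the 8371 protein-coding genes at the same minimum. Of the 122, 76 were under 5 FPKM and 9 were at 10 FPKM or more. The members just inside the minimum were Zfp87, Zfp266 and Zfp691, each at 2.07 FPKM, and the genes just outside were Zfp53 at 1.99, Zfp869 at 1.99 and Zfp946 at 1.98 FPKM. Of the 231 Zfp genes left out, 60 averaged 1 to 2 FPKM and 53 averaged under 0.1 FPKM, of which 11 were listed at 0 in each untreated library. The minimum of 2 FPKM was still met by 104 members with PLG+EACA+RNase and by 96 with PLG+EACA. All 122 members passed the filter on low values of the fit across genes.

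The 10 most abundant members carried no KRAB pattern. Zfp703, a transcriptional corepressor of the NET family, led at 41.6, 41.8, 42.4 and 41.6 FPKM with PLG+EACA+RNase, 40.1, 35.2, 41.5 and 31.7 FPKM with PLG+EACA, and 53.8, 56.5, 52.9 and 56.1 FPKM in untreated cells. Both treated groups lay below untreated cells, and the 4 PLG+EACA+RNase libraries lay just above the 4 PLG+EACA libraries. Zfp598, a ubiquitin ligase that marks collided ribosomes, averaged 25.5 ± 1.47 FPKM with PLG+EACA+RNase, 21.7 ± 4.03 FPKM with PLG+EACA and 26.9 ± 1.24 FPKM in untreated cells (SD, n = 4 each). Zfp106, an RNA-binding protein, averaged 23.7 ± 2.94, 20.1 ± 0.88 and 26.4 ± 0.42 FPKM in the same order of groups. Then, by untreated mean, came Zfp710 at 20.1 FPKM, Zfp516, a coactivator of brown fat genes, at 18.2 FPKM, Zfp217, a corepressor-bound factor, at 16.7 FPKM, Zfp207, which binds Bub3 and spindle microtubules, at 15.7 FPKM, Zfp706 at 13.9 FPKM, Zfp513 at 12.8 FPKM and Zfp276 at 9.88 FPKM. Zfp710, Zfp516, Zfp513 and Zfp276 overlap other expressed genes. Whether counting used the strand is not given in the sources used here, so the levels of these 4 are uncertain.

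**Figure D1:**
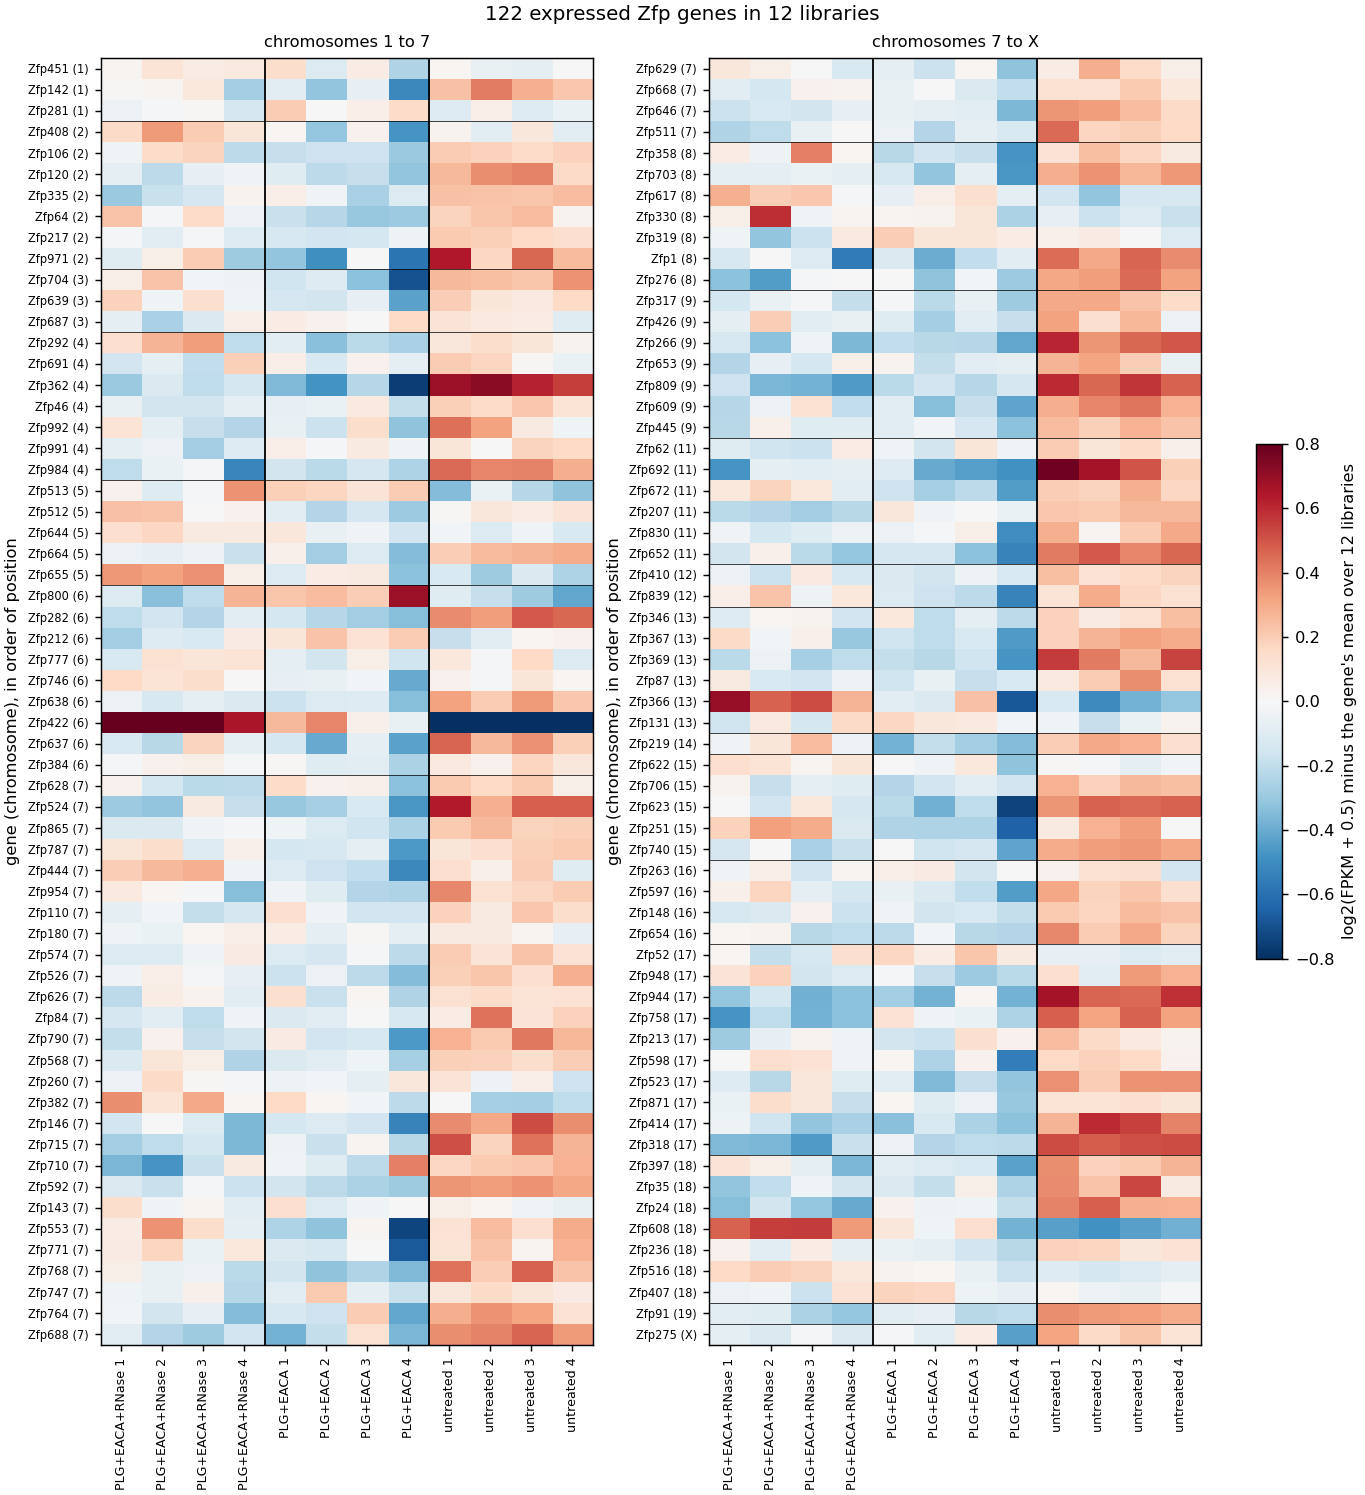
Each row is 1 of the 122 members in order of chromosome and position, each column 1 library, and the colour is log2(FPKM + 0.5) minus the mean of that gene over the 12 libraries, with red above and blue below that mean. Most rows are red in untreated cells and blue in both treated groups, PLG+EACA replicate 4 is the bluest column in many rows, and Zfp422, Zfp608 and Zfp366 run the other way.

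The comparison of PLG+EACA+RNase with PLG+EACA addresses what exposure of PLG to RNases changed. Differences among the zinc finger genes were small, and more were higher than lower. The largest were in Zfp422, 1.68-fold higher, Zfp366, 1.57-fold higher, and Zfp608, 1.44-fold higher, while Zfp207, Zfp212 and Zfp800 were lower by 1.18 to 1.35 times. By limma with Benjamini-Hochberg adjustment over all 11165 genes tested (threshold 0.05), 19 of 122 members rose (15.6%) where 12.1% of all genes did, and 5 fell (4.10%) where 8.73% of all genes did. In either direction 24 members were called, a share of 19.7% beside 20.8% of all genes, so the members were called about as often as other genes. With median-of-ratios scaling 19 members rose and 8 fell, where 10.6% and 11.4% of all genes did. No member passed both the threshold and a 2-fold change, which 1.11% of all genes did, and 42 members had an unadjusted limma p under 0.05. Their median difference was 0.08 on the log2 scale and that of all genes 0.04. The groups did not overlap for 18 members that were higher and 3 that were lower, where 10.4% and 7.68% of all genes were so placed.

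These counts depend on single libraries. Leaving out PLG+EACA+RNase replicate 3 left 6 members higher and 1 lower, leaving out its replicate 2 left 8 and 3, and leaving out its replicate 1 left 12 and 2. Without PLG+EACA+RNase replicate 4 there were 24 higher and 8 lower, and without PLG+EACA replicate 4 there were 11 and 3. The lower calls alone came to 2 without PLG+EACA replicate 1, to 1 without PLG+EACA replicate 2, and to 3 without untreated replicate 1 or 3. A fit of these 8 libraries alone, in which untreated libraries had no part in the spread, called 3 higher and 1 lower. Zfp422, Zfp608, Zfp219 and Zfp207 were called under every alternative of the fit that was run, and Zfp512 and Zfp672 also under each omission of 1 library.

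**Figure D2:**
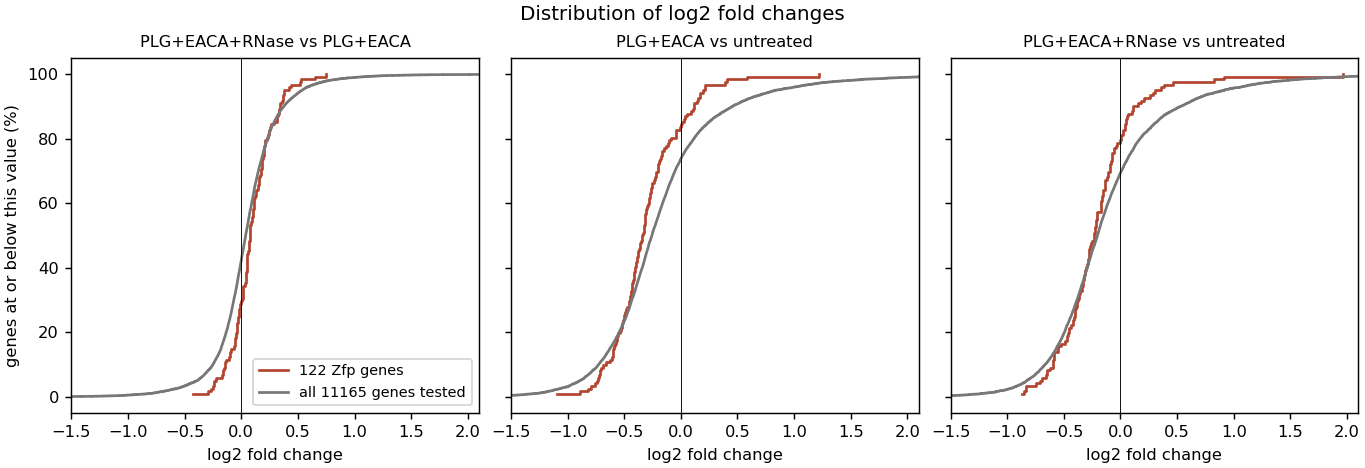
Each panel shows, for 1 comparison, the percentage of genes (vertical axis) with a log2 fold change at or below the value on the horizontal axis, for the 122 members in red and all 11165 genes tested in grey. In PLG+EACA+RNase against PLG+EACA the red curve lies slightly to the right, with a median of 0.08 against 0.04, and in PLG+EACA against untreated it lies to the left, with a median of -0.34 against -0.26.

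Zfp422 (chr6:116624016-116628999, minus strand), the mouse counterpart of human ZNF22, showed the largest difference. It had 18.7, 19.0, 17.8 and 14.5 FPKM with PLG+EACA+RNase, against 10.96, 12.1, 9.34 and 8.69 FPKM with PLG+EACA. The 4 PLG+EACA+RNase libraries lay above the 4 PLG+EACA libraries, and all of these lay above the untreated libraries at 4.25, 3.96, 4.06 and 4.11 FPKM. The log2 fold change of PLG+EACA+RNase over PLG+EACA was 0.75 ± 0.10 (SE, limma adjusted p = 0.00271). Folds here and below are on the scale of log2(FPKM + 0.5), which understates changes of low genes.

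Zfp608 (chr18:54888048-54992555, minus strand), which represses the recombination-activating genes in developing thymocytes, followed the same order of groups. Its levels were 6.57, 6.97, 6.99 and 5.95 FPKM with PLG+EACA+RNase, 4.93, 4.47, 5.09 and 3.41 FPKM with PLG+EACA, and 3.27, 3.13, 3.27 and 3.39 FPKM in untreated cells. No library of one group reached into the next, and the log2 fold change over PLG+EACA was 0.53 ± 0.10 (SE, limma adjusted p = 0.00699).

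Zfp366 (chr13:99184823-99250656, plus strand) encodes DC-SCRIPT, a corepressor known from dendritic cells. It had 7.35, 6.21, 6.45 and 5.34 FPKM with PLG+EACA+RNase, against 4.07, 3.97, 5.18 and 2.52 FPKM with PLG+EACA, and untreated cells had 3.94, 2.89, 3.22 and 3.41 FPKM. The PLG+EACA+RNase libraries lay above all others, while PLG+EACA and untreated libraries overlapped. The log2 fold change over PLG+EACA was 0.65 ± 0.16 (SE, limma adjusted p = 0.0192), and the call was lost without PLG+EACA+RNase replicate 3 (adjusted p = 0.0545) and in the fit of 8 libraries (adjusted p = 0.0595). Of 7 dendritic cell markers, 5 passed the filter, and of these Zbtb46 alone rose (log2 fold change 0.24 ± 0.08 SE, limma adjusted p = 0.0424). The summed marker level was 519 to 570 FPKM with PLG+EACA+RNase, 422 to 557 FPKM with PLG+EACA and 570 to 621 FPKM in untreated cells, carried mostly by Itgax. No dendritic cell marker was listed at 0 in every library of a group, and the part of these cells in the Zfp366 difference was not tested.

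Zfp219 (chr14:52006077-52020733, minus strand), a partner of Sox9 in cartilage, was chosen for mention after its values were seen. It had 6.44, 7.09, 7.92 and 6.37 FPKM with PLG+EACA+RNase, against 4.95, 5.72, 5.38 and 5.07 FPKM with PLG+EACA and 7.64, 8.25, 8.09 and 7.29 FPKM in untreated cells. The PLG+EACA+RNase libraries lay above those of PLG+EACA and overlapped the untreated ones, a pattern unlike that of Zfp422. The log2 fold change over PLG+EACA was 0.36 ± 0.07 (SE, limma adjusted p = 0.00878). The gene overlaps Arhgef40 on the opposite strand.

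Smaller rises were called in Zfp251, a KRAB gene at 2.35 ± 0.38 FPKM with PLG+EACA+RNase and 1.49 ± 0.26 FPKM with PLG+EACA (SD, n = 4 each), and in Zfp444, Zfp408, Zfp704 and Zfp358, 1.29- to 1.34-fold higher. The limma adjusted p of these 5 ran from 0.0167 to 0.0358, and each lost its call in the fit of 8 libraries and without PLG+EACA+RNase replicate 3, among other omissions. Zfp444 and Zfp358 hold the ZNF143 letters printed above, as does Zfp219. The other 10 members that rose had log2 fold changes of 0.20 to 0.44. In all, 3 of the 12 members with that motif rose, beside 15.6% of all members and 12.1% of all genes, and the median difference of the 12 was 0.05. Nothing particular to the motif is read from so few genes.

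Zfp207 (chr11:80383279-80405733, plus strand) was the one member that fell and kept its call under every alternative of the fit that was run. It had 11.3, 11.2, 10.8 and 11.2 FPKM with PLG+EACA+RNase, against 14.1, 13.0, 13.2 and 12.7 FPKM with PLG+EACA and 15.4, 15.3, 15.9 and 15.9 FPKM in untreated cells. The 3 groups did not overlap, and the log2 fold change over PLG+EACA was -0.24 ± 0.04 (SE, limma adjusted p = 0.00611).

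Zfp212 (chr6:47920476-47932639, plus strand) had 4.04, 4.60, 4.53 and 5.24 FPKM with PLG+EACA+RNase, against 5.36, 5.91, 5.43 and 5.80 FPKM with PLG+EACA and 4.32, 4.67, 5.05 and 5.12 FPKM in untreated cells. PLG+EACA libraries lay above both other groups, which overlapped, and the log2 fold change over PLG+EACA was -0.27 ± 0.07 (SE, limma adjusted p = 0.0282). This call was lost without the filter, in the fit of 8 libraries, and without PLG+EACA replicate 2 or 4 or PLG+EACA+RNase replicate 1, 2 or 3. Zfp800 showed the same shape at a log2 fold change of -0.43 ± 0.14 (SE, limma adjusted p = 0.0459), with 5.54, 4.67, 5.17 and 7.36 FPKM with PLG+EACA+RNase and 7.08, 7.23, 6.97 and 9.996 FPKM with PLG+EACA, and 5.59, 5.22, 4.84 and 4.39 FPKM in untreated cells. Replicate 4 was the highest in both treated groups, and PLG+EACA+RNase overlapped PLG+EACA through it. The Zfp800 call was lost without the filter, in the fit of 8 libraries, and on leaving out any 1 library other than PLG+EACA replicate 3 and PLG+EACA+RNase replicate 4.

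**Figure D3:**
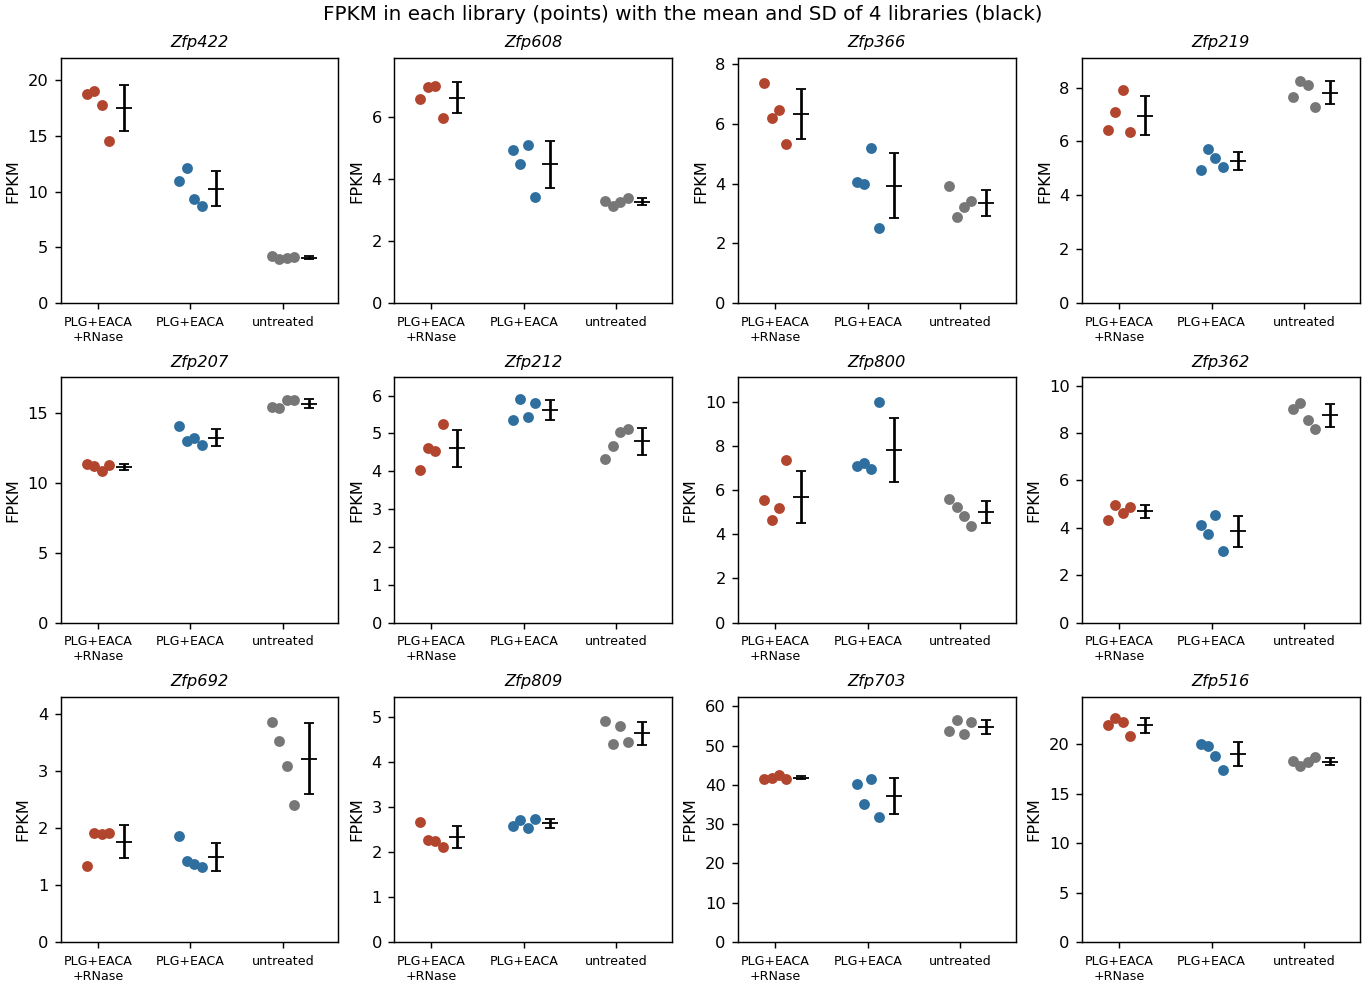
FPKM of 12 members in each library (points), with the mean and SD of the 4 libraries of a group (black), for PLG+EACA+RNase, PLG+EACA and untreated cells from left to right. Zfp422 and Zfp608 fall in 3 separate levels with PLG+EACA+RNase highest, Zfp207 in 3 separate levels with PLG+EACA+RNase lowest, and Zfp362, Zfp692, Zfp809 and Zfp703 lie below untreated cells in both treated groups.

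Set against untreated cells, the PLG+EACA libraries show how the zinc finger genes stood after exposure to the EACA-treated PLG. Most members were lower, by small amounts. The fit called 87 of 122 lower (71.3%) where 53.4% of all genes were, and 8 higher (6.56%) where 14.9% of all genes were, and 68.3% of all genes were called in either direction. Since the untreated values chose the members, nothing is read from these shares. The median log2 fold change was -0.34 for members and -0.26 for all genes, and that shift of all genes depends on scaling. With median-of-ratios scaling, which sets the median gene near 0 (-0.01), 41 members were lower and 25 higher where 26.4% and 27.3% of all genes were, and the members' median was -0.10. The groups did not overlap for 81 members that were lower and 7 that were higher, where 50.9% and 13.8% of all genes were so placed. The reads on members made up 0.342 to 0.361% of counted reads with PLG+EACA+RNase, 0.300 to 0.345% with PLG+EACA and 0.397 to 0.409% in untreated cells.

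Zfp362 (chr4:128773088-128806045, minus strand) was the member with the largest drop. It had 4.13, 3.76, 4.55 and 3.01 FPKM with PLG+EACA, against 9.0, 9.27, 8.57 and 8.17 FPKM in untreated cells. The groups lay far apart, 2.14-fold lower with PLG+EACA, with a log2 fold change of -1.10 ± 0.10 (SE). With PLG+EACA+RNase the gene had 4.32, 4.96, 4.63 and 4.88 FPKM, which overlapped PLG+EACA and was 1.78-fold below untreated cells.

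Zfp692 (chr11:58307069-58314627, plus strand), whose promoter holds the ZNF143 letters, had 1.85, 1.42, 1.37 and 1.31 FPKM with PLG+EACA, against 3.84, 3.52, 3.09 and 2.40 FPKM in untreated cells. It was 1.86-fold lower, and the lowest untreated library was above the highest PLG+EACA library. Next in size came Zfp623, Zfp944, Zfp524, Zfp266, Zfp971 and Zfp652, 1.65- to 1.77-fold lower, in each of which the PLG+EACA and untreated libraries did not overlap. Zfp944, Zfp266 and Zfp971 carry a KRAB pattern. Zfp524 overlaps Fiz1, and Zfp652 overlaps Abi3, Phospho1 and its own antisense transcript, so the values of both are uncertain. Of the 12 members with the ZNF143 letters, 9 were called lower, beside 71.3% of all members and 53.4% of all genes, with a median log2 fold change of -0.40. With median-of-ratios scaling 4 were lower and 2 higher, and nothing particular to the motif is read from these counts.

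Few members were called higher without scaling between libraries. Zfp422 was 2.33-fold higher with PLG+EACA (log2 fold change 1.22 ± 0.10, SE), and it and Zfp362 were the members past 2-fold, a size that 6.78% of all genes reached in either direction. Zfp800 was 0.58, Zfp513 0.41 and Zfp608 0.39 higher on the log2 scale, and Zfp212, Zfp52 and Zfp617 were 1.14- to 1.16-fold higher, each with PLG+EACA libraries above every untreated library. The 8th, Zfp281, a factor of embryonic stem cells, was 0.15 higher on the log2 scale and is named here after its values were seen. Without untreated replicate 1, 5 members were called higher. With median-of-ratios scaling 25 were, where 27.3% of all genes were. Zfp362 then had a log2 fold change of -0.84 and was not past 2-fold. Zfp513 overlaps Snx17 on the opposite strand.

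Against the same untreated libraries, PLG+EACA+RNase gave a like picture. The fit called 69 members lower (56.6%) where 48.4% of all genes were, and 9 higher (7.38%) where 16.0% of all genes were, and 64.4% of all genes were called in either direction. The libraries did not overlap for 68 lower and 12 higher members, where 46.7% and 15.0% of all genes were so placed. With median-of-ratios scaling these counts were 32 and 24, where 26.4% and 28.4% of all genes were so called. The median log2 fold change was -0.23 for members and -0.20 for all genes, and with the scaling -0.03 for members and 0.01 for all genes. Of the members, 64 were called lower in both treated groups 23 with PLG+EACA alone and 5 with PLG+EACA+RNase alone, a difference that the shared untreated libraries do not test.

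Zfp422 reached 3.90 times its untreated level with PLG+EACA+RNase, a log2 fold change of 1.96 ± 0.10 (SE), and was the member past 2-fold in a comparison where 6.41% of all genes were. With median-of-ratios scaling 3 members were more than 2-fold higher. Zfp608 was 1.89-fold, Zfp366 1.77-fold and Zfp655 1.38-fold higher than in untreated cells, followed by Zfp382, Zfp617, Zfp516 and Zfp644 at 1.13- to 1.31-fold. Zfp655 had 7.80, 7.65, 7.92 and 6.24 FPKM with PLG+EACA+RNase, against 5.51, 4.87, 5.53 and 4.999 FPKM in untreated cells. Its PLG+EACA libraries, at 5.55, 6.32, 6.37 and 4.70 FPKM, overlapped both. Zfp655, Zfp382 and Zfp617 carry a KRAB pattern.

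Zfp809 (chr9:22225714-22243354, plus strand), the KRAB protein that recognises the proline primer binding site of murine leukaemia viruses, had 2.67, 2.26, 2.25 and 2.104 FPKM with PLG+EACA+RNase, 2.56, 2.697, 2.53 and 2.74 FPKM with PLG+EACA, and 4.90, 4.39, 4.79 and 4.45 FPKM in untreated cells. Both treated groups lay well below untreated cells and overlapped each other, and the gene was 1.82-fold below untreated cells with PLG+EACA+RNase and 1.64-fold below with PLG+EACA. Zfp318, needed for IgD on B cells, was 1.80- and 1.61-fold below untreated cells in the same order, at 1.71 ± 0.18, 1.97 ± 0.15 and 3.47 ± 0.05 FPKM in PLG+EACA+RNase, PLG+EACA and untreated cells (SD, n = 4 each). Zfp944 and Zfp758, neighbours on chromosome 17 and both KRAB genes, were 1.78- and 1.67-fold below untreated cells with PLG+EACA+RNase. Zfp24, which acts in myelination, was 1.58-fold below. Zfp758 (log2 fold change -0.29 ± 0.08, SE, limma adjusted p = 0.0296) and Zfp24 (-0.24 ± 0.07, limma adjusted p = 0.038) also fell relative to PLG+EACA, with groups that overlapped. Both calls were lost without the filter, in the fit of 8 libraries, and without PLG+EACA replicate 1 or 2 or PLG+EACA+RNase replicate 1 or 3, and that of Zfp24 also without PLG+EACA replicate 3, PLG+EACA+RNase replicate 4 or untreated replicate 1 or 3.

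Protein features split the members. Counted in the translated reading frames of GENCODE M21, C2H2 fingers ran from 0 to 36 per protein with a median of 9, and Zfp703, Zfp330 and Zfp839 matched the finger pattern nowhere. A KRAB pattern, scored by at least 9 of 12 conserved positions, was found in 33 members, which scored 10 to 12. Of the other 89, 84 scored 3 to 5 and 5 scored 6 to 8, among them Zfp282 and Zfp212 at 8 and Zfp746 at 7. The class without the pattern may therefore hold KRAB boxes that differ from it. KRAB members had a median of 11 fingers and reached at most 7.55 FPKM in untreated cells, while the others had a median of 7 fingers. Between PLG+EACA+RNase and PLG+EACA, 2 KRAB members rose and 1 fell, against 17 and 4 of the others, with medians of 0.05 and 0.09 on the log2 scale. These were 6.06% and 3.03% of KRAB members and 19.1% and 4.49% of the others, beside 12.1% and 8.73% of all genes. In PLG+EACA against untreated cells, 25 of 33 KRAB members were called lower and 2 higher, against 62 and 6 of 89, with medians of -0.37 and -0.33. Of all genes, 53.4% were lower and 14.9% higher. Against untreated cells, 21 KRAB members were lower and 3 higher with PLG+EACA+RNase, against 48 and 6, with medians of -0.29 and -0.21. Of all genes, 48.4% were lower and 16.0% higher. With median-of-ratios scaling, the medians against untreated cells were -0.12 for KRAB members and -0.08 for the others with PLG+EACA, and -0.10 and -0.01 with PLG+EACA+RNase. With PLG+EACA 12 KRAB members were then lower and 5 higher, against 29 and 20 of the others, beside 26.4% and 27.3% of all genes. With PLG+EACA+RNase they were 10 and 5, against 22 and 19, beside 26.4% and 28.4% of all genes. Between PLG+EACA+RNase and PLG+EACA, the scaling gave 2 KRAB members higher and 3 lower, against 17 and 5 of the others. The medians were then 0.01 and 0.06, and 10.6% of all genes were higher and 11.4% lower. Whether KRAB members differ from the others was not tested. Members of this family are close relatives, and reads that match several of them could be split or dropped in counting.

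**Figure D4:**
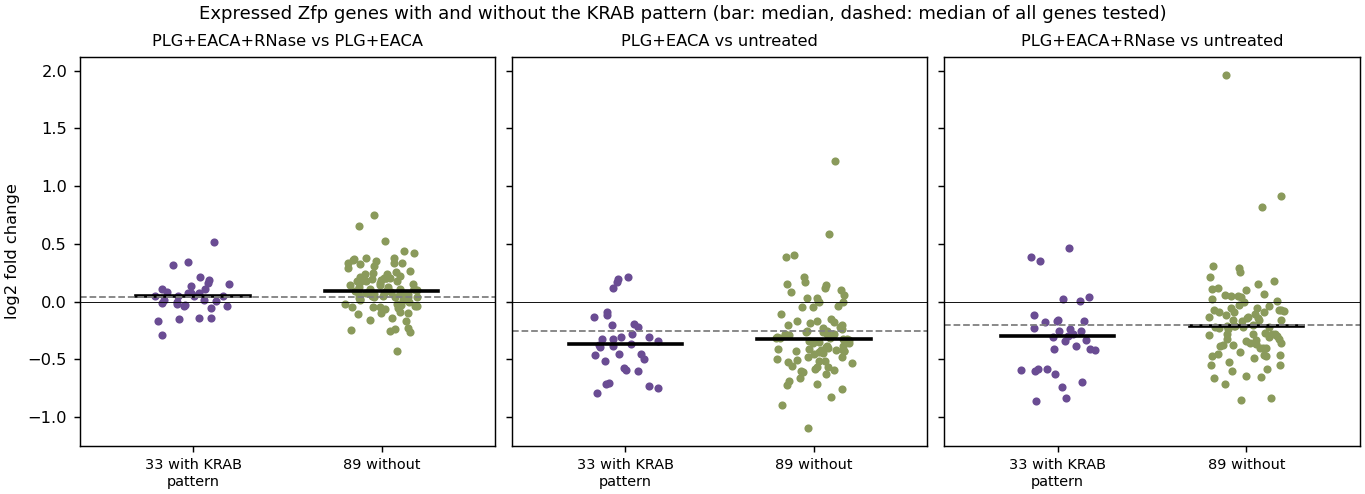
Log2 fold change of each member in the 3 comparisons, for the 33 members with the KRAB pattern (left of each panel) and the 89 without (right), with the median as a bar and the median of all genes tested as a dashed line. Medians of the classes lie close together, at 0.05 and 0.09, at -0.37 and -0.33, and at -0.29 and -0.21, and the highest points, among them Zfp422, are members without the pattern.

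Of the corepressors that KRAB proteins work with, more were called lower than higher against untreated cells, and how many depended on scaling. Of 37 listed genes 36 were in the table and 34 passed the filter. With PLG+EACA against untreated cells, limma with Benjamini-Hochberg adjustment called 28 lower (82.4%) and 5 higher (14.7%), where 53.4% and 14.9% of all genes were. With PLG+EACA+RNase it called 24 lower (70.6%) and 2 higher (5.88%), where 48.4% and 16.0% of all genes were. With median-of-ratios scaling 14 were lower and 6 higher with PLG+EACA, where 26.4% and 27.3% of all genes were, and 15 and 6 with PLG+EACA+RNase, where 26.4% and 28.4% were. With that scaling the medians of the list were -0.09 and -0.11 on the log2 scale, beside -0.01 and 0.01 for all genes. Without it they were -0.35 and -0.33, beside -0.26 and -0.20 for all genes. Trim28, the KRAB-binding scaffold, had 15.9, 16.6, 17.2 and 14.1 FPKM with PLG+EACA, against 28.1, 26.1, 28.3 and 24.7 FPKM in untreated cells. It fell 1.66-fold (limma adjusted p = 3.09e-06), without overlap. Setdb1, which methylates histone H3 lysine 9, fell 1.80-fold to 3.66 ± 0.40 FPKM with PLG+EACA, against 6.96 ± 0.22 FPKM in untreated cells (SD, n = 4 each, limma adjusted p = 8.20e-07). Trim28 overlaps Zbtb45 and Setdb1 overlaps Cers2.

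Ehmt1, a histone methyltransferase of the same lysine, fell 1.67-fold and Dnmt1, the maintenance DNA methyltransferase, fell 1.97-fold with PLG+EACA (limma adjusted p = 1.56e-06 and 2.96e-06). Cbx5, a heterochromatin protein, fell 1.79-fold with PLG+EACA+RNase against untreated cells (limma adjusted p = 2.71e-06). Daxx, a chaperone of histone H3.3, ran against the list. It had 36.8, 31.3, 34.3 and 59.6 FPKM with PLG+EACA+RNase, 66.1, 63.9, 56.8 and 81.8 FPKM with PLG+EACA, and 18.8, 19.5, 16.9 and 15.5 FPKM in untreated cells. It rose 3.71-fold with PLG+EACA over untreated cells (limma adjusted p = 2.65e-06) and was 1.69-fold lower with PLG+EACA+RNase than with PLG+EACA (adjusted p = 0.0145), where replicate 4 overlapped. Between PLG+EACA+RNase and PLG+EACA, 4 of the list fell (11.8%) and 2 rose (5.88%), where 8.73% and 12.1% of all genes did. Morc3 fell 1.39-fold and Chd3 of the NuRD complex rose 1.35-fold (limma adjusted p = 0.00852 and 0.0265). Trim28 and Setdb1 differed there by 0.06 ± 0.07 and 0.05 ± 0.07 (SE) on the log2 scale and did not pass the test.

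Members lay on 19 chromosomes, 31 of them on chromosome 7, which holds 87 of the 353 protein-coding Zfp genes, 10 on chromosome 17 and 9 on chromosome 6. Joining neighbours whose starts lie within 500 kb gave 15 groups of at least 2 members with 45 members in all, and 77 members stood alone. Of these groups, 5 had at least 3 members.

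The largest, chr7:127233061-127885996, held 9 members of 10 Zfp genes: Zfp553, Zfp771, Zfp768, Zfp747, Zfp764, Zfp688, Zfp629, Zfp668 and Zfp646. Zfp747, Zfp764 and Zfp688 carry KRAB. With PLG+EACA against untreated cells 8 of the 9 were called lower, Zfp747 being the exception, and the 9 log2 fold changes ran from -0.60 to -0.13. Zfp768 had 5.69, 4.98, 5.31 and 4.87 FPKM with PLG+EACA, against 8.76, 7.35, 8.99 and 7.53 FPKM in untreated cells, a 1.51-fold drop, and Zfp688 at 2.21 ± 0.46 and 3.56 ± 0.15 FPKM (SD, n = 4 each) dropped as much. In PLG+EACA+RNase against PLG+EACA, Zfp553 rose (log2 fold change 0.44 ± 0.14, SE, limma adjusted p = 0.044), though its libraries overlapped those of PLG+EACA. That call was lost under the same alternatives as the call of Zfp800. Zfp668 and Zfp646 overlap each other on opposite strands.

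The group at chr7:29768552-30169750 held 6 members of 15 Zfp genes, and they did not move together. Against untreated cells, Zfp84, Zfp790, Zfp568, the placental repressor of Igf2, and Zfp146 were called lower with PLG+EACA, at log2 fold changes of -0.28, -0.46, -0.31 and -0.63. Zfp260 differed by 0.00 and Zfp382 by 0.17. With median-of-ratios scaling, Zfp146 alone of the 6 was called lower with PLG+EACA. Zfp84, Zfp790 and Zfp568 were then not called, and Zfp260 and Zfp382 were called higher. Without that scaling Zfp382 was the one called higher with PLG+EACA+RNase, and with it Zfp260 was as well. Zfp382 had 6.60, 5.42, 6.26 and 5.03 FPKM with PLG+EACA+RNase, against 4.99, 4.06, 4.02 and 4.25 FPKM in untreated cells, a narrow separation.

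The group at chr6:47877204-48086593 was as mixed. Zfp212 was higher with PLG+EACA than in untreated cells, by 0.21 on the log2 scale, and its neighbour Zfp282 had a log2 fold change of -0.66. Zfp777 and Zfp746 differed by -0.11 and -0.17, which did not pass the test. The 3 members of chr7:4915217-5036768, Zfp628, Zfp524 and Zfp865, had -0.18, -0.76 and -0.35, and the 3 of chr18:23954692-24020810, Zfp397, Zfp35 and Zfp24, had -0.44, -0.43 and -0.42.

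**Figure D5:**
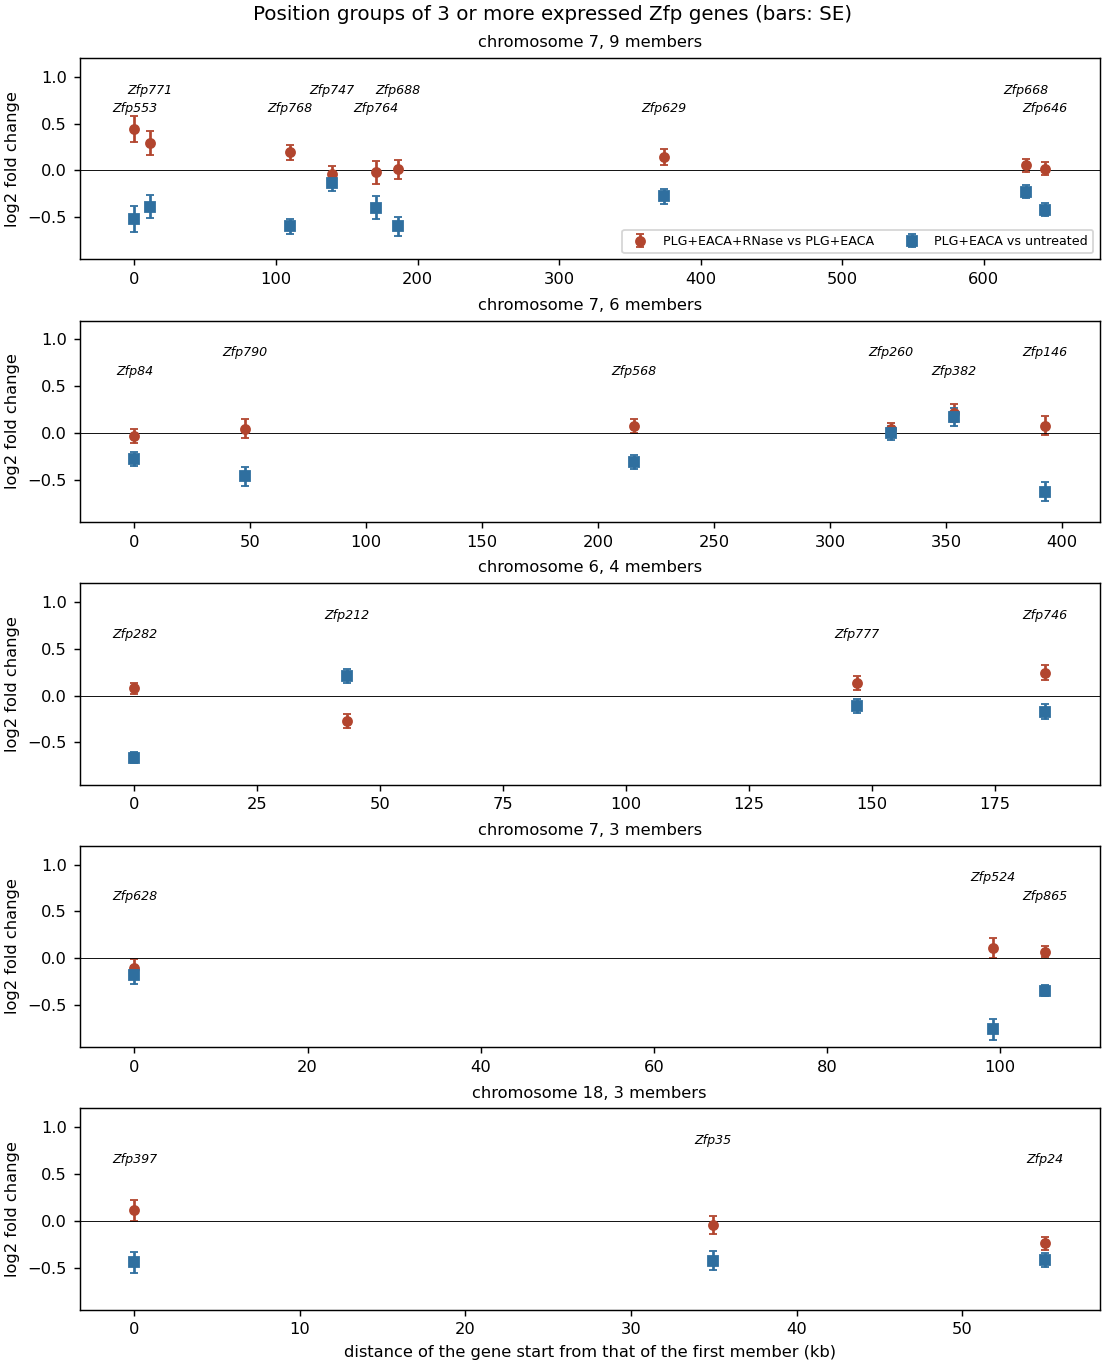
Log2 fold changes with SE of the members of the 5 position groups that hold at least 3 members, plotted against the distance of each gene start from the first member in kb, with PLG+EACA+RNase against PLG+EACA in red and PLG+EACA against untreated in blue. In the largest group blue values run from -0.60 to -0.13, and in the chromosome 6 group Zfp212 and Zfp282 lie on opposite sides of 0.

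Other zinc finger families with the same minimum level were set beside the members. Of 35 such genes (24 Zbtb, 5 Zkscan, 4 Zscan and 2 Zfp36l), 4 rose and 3 fell in PLG+EACA+RNase against PLG+EACA by limma. These shares, 11.4% and 8.57%, were close to the 12.1% and 8.73% of all genes. In PLG+EACA against untreated cells 21 were called lower (60.0%) and 4 higher (11.4%), where 53.4% and 14.9% of all genes were. In PLG+EACA+RNase against untreated cells 17 were lower (48.6%) and 3 higher (8.57%), where 48.4% and 16.0% of all genes were. Their medians were 0.08, -0.31 and -0.23 on the log2 scale, beside 0.08, -0.34 and -0.23 for the members. With median-of-ratios scaling 11 were lower and 11 higher with PLG+EACA, where 26.4% and 27.3% of all genes were. With PLG+EACA+RNase 9 and 12 were, where 26.4% and 28.4% of all genes were. Zfp36, left out by the rule, encodes tristetraprolin, a CCCH protein that promotes decay of cytokine mRNAs. It was at 32.7, 34.2 and 19.7 FPKM in PLG+EACA+RNase, PLG+EACA and untreated cells, so higher than untreated by 0.71 and 0.77 on the log2 scale, while its relatives Zfp36l1 and Zfp36l2 had log2 fold changes of -0.82 and -0.44 with PLG+EACA+RNase and of -0.64 and -0.90 with PLG+EACA.

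Leaving out the 20 members that overlap another gene of at least 1 FPKM left 102. Of these 16 rose and 5 fell in PLG+EACA+RNase against PLG+EACA, 7 were higher and 71 lower in PLG+EACA against untreated, and 7 and 57 in PLG+EACA+RNase against untreated. Their shares were 15.7% and 4.90%, 6.86% and 69.6%, and 6.86% and 55.9%. Those of all genes, in the same order, were 12.1% and 8.73%, 14.9% and 53.4%, and 16.0% and 48.4%. Among measures of the libraries themselves, the mitochondrial share of reads was 0.503%, 0.631% and 0.755% in PLG+EACA+RNase, PLG+EACA and untreated cells, and the share of the single gene Gm26917 was 13.9%, 12.4% and 11.05%. Their part in the differences above was not tested.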

How the data were processed

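The authors deposited FPKM per gene and library, divided by gene length and by reads counted to genes, with no scaling between libraries, since FPKM times length had the same sum in each. Per the submitters' processing notes, which give neither roles nor order, the tools were STAR 2.7.11a, featureCounts 2.0.6, cutadapt 4.5, DESeq2 1.40.2 and FastQC 0.12.1, on GRCm38.p6. Coordinates are those of the deposited table, and 121 of 122 members matched GENCODE M21 with version and position.

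Genes with at least 1 FPKM in at least 4 of 12 libraries (11165) were fitted with limma 3.58.1 in R 4.3.3 on log2(FPKM + 0.5), with 1 mean per group, trended empirical Bayes and two-sided tests. The 12 libraries gave 1 estimate of the spread per gene, shared by all comparisons. Adjustment (Benjamini-Hochberg) was over all 11165 genes for each of 3 comparisons. The steps were tested on simulated data with changes of 2- and 4-fold in either direction in PLG+EACA+RNase. Of the changed genes of each size, 95.6 to 100% were called. The simulated spread was fixed and not taken from these libraries. Changes under 2-fold were not simulated, so the test does not cover the smaller differences described here.

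Members and gene lists were chosen with earlier results of these data known. The genes named were the 10 highest in untreated cells, up to 8 per direction and comparison with the largest change among those called and without overlap, 12 from the largest position groups, the 3 genes on each side of the minimum level, and from the corepressor list the 4 of smallest p per comparison with Trim28 and Setdb1. Zfp219, Zfp512, Zfp672, Zfp281, Zfp143, the other genes of the motif list and of the smaller position groups were named after their values were seen. Alternatives were pseudocounts of 0.1 and 1, no filter, median-of-ratios scaling, robust empirical Bayes, a replicate block, 8-library fits, each library left out, and other minimum levels.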

Additional observations from a re-analysis of the deposited data

Results flagged for a closer look

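In groups of 4 libraries, 1 library lay apart from the others in 10 of 147 groups examined (49 named members in 3 groups), where chance would flag about 1 in 20. PLG+EACA replicate 4 was that library in 5 of them. It was low for Zfp106, at 18.8 FPKM against 20.4 to 20.7 in the others, for Zfp251, at 1.11 against 1.62 in each of the others, for Zfp266, at 0.877 against 1.07 to 1.10, and for Zfp646, at 4.49 against 5.54 to 5.64. It was high for Zfp800, at 9.996 FPKM against 6.97 to 7.23. PLG+EACA replicate 1 was high for Zfp318, at 2.195 FPKM against 1.87 to 1.92.

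In PLG+EACA+RNase, replicate 4 was low for Zfp655, at 6.24 FPKM against 7.65 to 7.92, and replicate 1 was low for Zfp692, at 1.32 FPKM against 1.89 to 1.91. Among untreated libraries, replicate 2 was low for Zfp617, at 3.22 FPKM against 3.67 to 3.74, and replicate 1 was low for Zfp623, at 3.02 FPKM against 3.28 to 3.33.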

How the results depend on the processing

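In PLG+EACA+RNase against PLG+EACA, members called higher and lower numbered 19 and 5. Without the filter they were 10 and 1, in the fit of 8 libraries 3 and 1, with median-of-ratios scaling 8 were lower, and over the 46 genes of at least 5 FPKM they were 6 and 3. Leaving out 1 library gave 6 to 24 higher and 1 to 8 lower. In PLG+EACA against untreated cells (8 higher, 87 lower), scaling gave 25 and 41, no filter gave 5 higher, and the minimum of 5 FPKM gave 2 and 34, while leaving out 1 library gave 5 to 8 and 83 to 89. In PLG+EACA+RNase against untreated cells (9 and 69), scaling gave 24 and 32, the minimum of 5 FPKM gave 3 and 27, and leaving out 1 library gave 8 to 12 and 58 to 71. The members' median less that of all genes was 0.04, -0.08 and -0.03 in these comparisons, and ranged over 0.02 to 0.06, -0.11 to -0.07 and -0.05 to -0.02 with 1 library left out. Without the filter, which adds genes at or near 0, it was -0.31 and -0.23 against untreated cells. Apart from these effects of construction, the cause of the shifts was not tested.

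Of 41 pairs of a comparison and a member called in it without overlap and named for the size of its change, 31 kept their call under each of 19 alternatives, and no direction was reversed. Of all 24 members called in PLG+EACA+RNase against PLG+EACA, 4 did. Correlations between libraries of the same replicate number were low, from -0.18 to 0.33, and over 0.1 in 3 of 12 pairs. The highest was between replicate 4 of PLG+EACA+RNase and replicate 4 of PLG+EACA. In 8 of 24 cases the own number correlated best. These values do not settle whether libraries were paired. A replicate block gave 23 higher and 5 lower in PLG+EACA+RNase against PLG+EACA, 8 and 88 in PLG+EACA against untreated cells, and 9 and 68 in PLG+EACA+RNase against untreated cells. Members with few reads, as low as 26 in a library, limit what small differences could be detected.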
